A study of Mus musculus with 8 samples.

Results

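Foxp3 and 9 genes that mark or serve regulatory T cells were followed through 8 RNA-seq libraries of naive CD4 T cells. The 10 genes, out of 53465 gene IDs in the count table, were Foxp3, Flicr, Ikzf2, Ikzf4, Ctla4, Tnfrsf18, Izumo1r, Il2ra, Gpr83 and Lrrc32, and each was found by its gene symbol. The genes were chosen by the measured levels of these same KO and WT libraries, as a set around Foxp3, so their values are given as a description and no test on them is offered as support. All 10 had reads, and 9 had enough reads for the fit across all genes. Lrrc32 did not.

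The KO group held 4 libraries (Sample_2907_KO, Sample_2908_KO, Sample_2909_KO and Sample_2910_KO) from mice given tamoxifen, and the WT group held 4 libraries (Sample_2911_WT, Sample_2913_WT, Sample_2914_WT and Sample_2915_WT) from mice left untreated. All 8 libraries shared the genotype Satb1fl/fl x CD4-CreERT2wt/+, so the WT mice also carried floxed Satb1 and a Cre, driven by CD4 sequences, that tamoxifen activates. Tamoxifen was given to the KO group alone, so its effect and that of the intended deletion cannot be told apart. The cells came from spleen and lymph node and were sorted as naive CD3+CD4+ cells, among other marks without CD25 and with little or no CD44. No label states ages, the dose, the time after treatment, or whether the libraries of a group came from separate mice. The p-values of the fit therefore measure the spread between these libraries, which may be technical.

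Foxp3 is a forkhead transcription factor that is required for regulatory T cells, the CD4 T cells that restrain other immune cells. Its transcription is normally kept off in conventional CD4 T cells and is opened in the thymus, or after activation in the periphery, by signals from the T cell receptor, IL-2 and TGF-beta. Satb1 encodes a chromatin-organising protein of T cells that acts at regulatory T cell genes in thymic precursors and whose own transcription Foxp3 represses in mature regulatory T cells. Most regulatory T cells of the mouse carry CD25, the protein made from Il2ra, and the sort of both groups took cells without it. How many regulatory T cells remained in either group was not measured.

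The KO libraries held 7544075 to 9253620 counted reads and the WT libraries 5227758 to 21998174, with Sample_2911_WT the smallest and Sample_2914_WT the largest. Levels are given as normalised read counts, which are counted reads divided by the size factor the authors assigned to each library. Satb1, the targeted gene, stood at 7550, 9088, 7406 and 8074 normalised reads in KO libraries, against 8717, 8962, 9245 and 9544 in WT libraries. The groups overlapped, and Satb1 was not called changed (log2 fold change -0.18, SE 0.059, edgeR adjusted p = 0.0582). Which exons were floxed is not given in the labels, so a count over the whole gene may miss the deletion, and KO here names the group. Defining genes of naive CD4 T cells were abundant, with a summed level of 60008 to 66724 normalised reads in KO and 60522 to 64339 in WT libraries. In the fit across all genes 752 of 11772 tested genes were called at an adjusted p under 0.05 (6.39%), with 468 higher in KO (3.98%) and 284 lower (2.41%).

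Foxp3 separated the groups by a wide margin. It had 486, 821, 994 and 996 normalised reads in the KO libraries, in the order of their numbers, against 71.6, 78.0, 86.3 and 61.0 in the WT libraries in theirs. The same orders hold for every gene below. Every KO library lay above every WT library, and the lowest KO library was still several times higher than the highest WT library. The means were 824 ± 240 normalised reads in KO and 74.2 ± 10.7 in WT (SD, n = 4 each), a log2 fold change of 3.45 (SE 0.298), or 10.9-fold. Ranked from the most positive log2 fold change downward, Foxp3 was 2 of 11772 tested genes, behind Gm16702. That gene averaged 4.1 CPM (reads scaled to a common library size) and had a log2 fold change of 3.89. In the same order Foxp3 ranked 1 among the 9549 genes that averaged 5 CPM or more. In counted reads this was 451, 850, 1043 and 841 in KO libraries and 42, 49, 219 and 80 in WT libraries, so the WT level rests on few reads in 3 of the 4 libraries. RNA from whole cell populations cannot tell more Foxp3-expressing cells from more Foxp3 RNA per cell, and this holds for all values below.

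**Figure D1:**
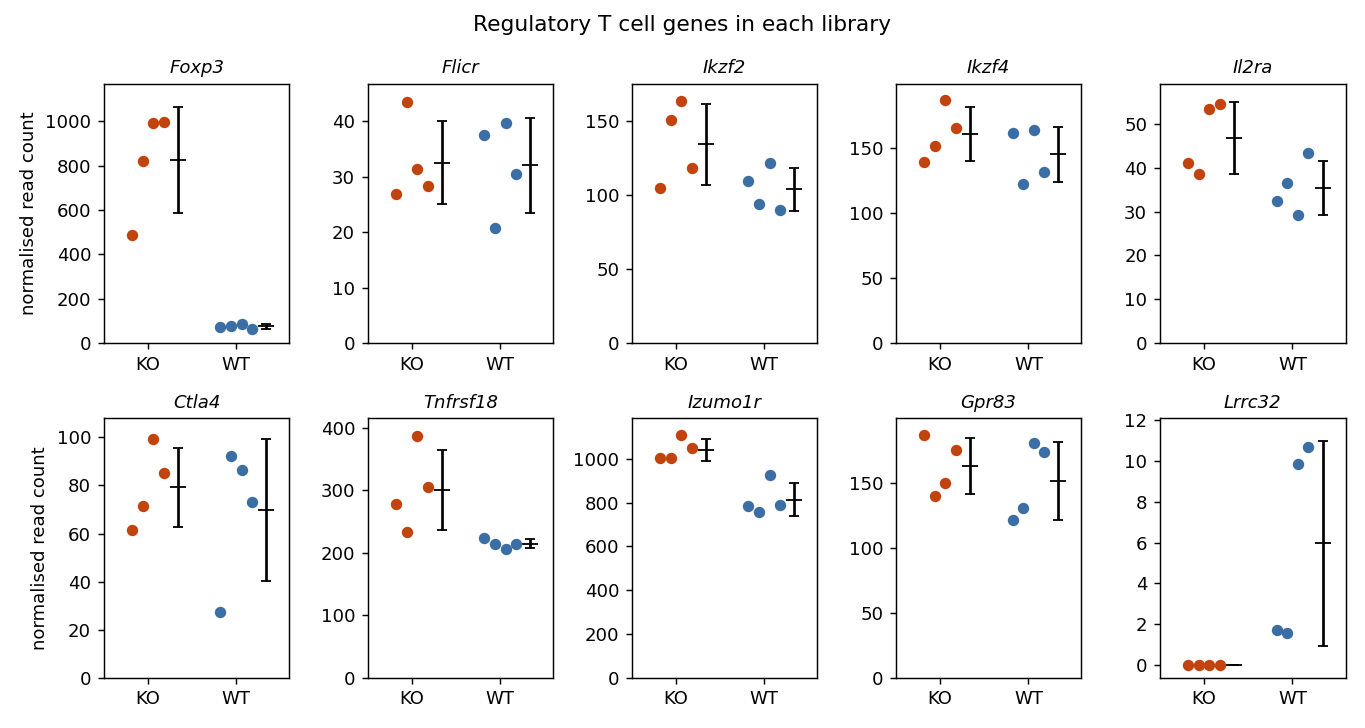
Normalised read counts (y axes, linear, a separate scale for each gene) of the 10 regulatory T cell genes in each library, with KO libraries left and WT libraries right in each panel; points are libraries in the order of their numbers, and the bars are the mean ± SD (n = 4 each). Foxp3 lies between 486 and 996 in KO and between 61.0 and 86.3 in WT libraries, whereas the points of Flicr, Ikzf2, Ikzf4, Il2ra, Ctla4 and Gpr83 overlap between the groups and Lrrc32 is at 0 in all 4 KO libraries.

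The KO libraries differed among themselves more for Foxp3 than for most genes. The coefficient of variation of Foxp3 was 29.1% over the KO libraries, which was higher than that of 99.8% of the 3426 genes whose KO mean was within 2-fold of its own (median 6.64%). Over the WT libraries it was 14.4%, higher than that of 42.1% of the 2319 genes of like level (median 15.8%). Sample_2907_KO carried the low value and lay 0.71 below the KO mean of log2 levels, whereas Sample_2909_KO and Sample_2910_KO both lay 0.33 above it. Sample_2907_KO was also the lowest KO library for 6 of the 9 tested genes, and Sample_2909_KO was the highest for 5 of 9. The median of the 8 other tested genes lay 0.19 below the group mean in Sample_2907_KO and 0.21 above it in Sample_2909_KO, and in Sample_2910_KO, which was level with Sample_2909_KO for Foxp3, it lay 0.050 above. Gpr83 went against this and was highest in Sample_2907_KO among the KO libraries. Without Sample_2907_KO the log2 fold change of Foxp3 was 3.63.

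Foxp3 (ENSMUSG00000039521.12) lies at chrX:7573644-7595245 on the plus strand (mm10, GENCODE release M21). RefSeq (GRCm38.p6, the assembly behind mm10) places its transcript starts further in, and a pair of windows from 250 bases before to 50 bases after such a start is printed below, because Foxp3 is the gene that separates the groups most. Flicr (ENSMUSG00000039545.15, chrX:7573600-7581027, plus strand), a long noncoding RNA that starts 44 bases from Foxp3 in that annotation, has its own window. Capitals mark matches to any of 7 short motifs searched on both strands. They were the TATA box TATAAA, the STAT site TTCNNNGAA, the RUNX site TGTGGT, the ETS site CCGGAA, the NFAT core GGAAAA, the forkhead site GTAAACA, and the core of the interferon-stimulated response element.
Foxp3, window 1, chrX:7579426-7579725, plus strand: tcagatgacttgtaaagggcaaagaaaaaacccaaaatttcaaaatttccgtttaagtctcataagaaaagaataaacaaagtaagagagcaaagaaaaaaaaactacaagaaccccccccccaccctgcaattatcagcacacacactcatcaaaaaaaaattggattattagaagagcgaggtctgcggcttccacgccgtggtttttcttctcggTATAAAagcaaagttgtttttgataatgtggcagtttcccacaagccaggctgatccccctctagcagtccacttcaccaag
Foxp3, window 2, chrX:7580233-7580532, plus strand: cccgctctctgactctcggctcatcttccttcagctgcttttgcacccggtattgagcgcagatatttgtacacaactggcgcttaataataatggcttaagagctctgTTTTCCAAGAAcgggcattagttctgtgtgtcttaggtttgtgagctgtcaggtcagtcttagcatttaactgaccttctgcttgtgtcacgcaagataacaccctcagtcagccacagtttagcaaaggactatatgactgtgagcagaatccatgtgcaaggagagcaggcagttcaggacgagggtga
Flicr, chrX:7573350-7573649, plus strand: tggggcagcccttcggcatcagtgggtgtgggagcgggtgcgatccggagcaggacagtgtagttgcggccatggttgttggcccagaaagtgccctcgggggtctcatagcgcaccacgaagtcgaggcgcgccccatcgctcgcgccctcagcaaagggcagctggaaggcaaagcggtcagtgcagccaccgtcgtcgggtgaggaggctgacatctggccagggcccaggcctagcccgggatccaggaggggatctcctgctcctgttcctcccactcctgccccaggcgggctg
In the first Foxp3 window a TATA box spans -32 to -27 relative to the start, a motif that 13.6% of the 32851 RefSeq windows of this length hold. In the second a STAT motif spans -139 to -131 and overlaps an NFAT core at -141 to -136 on the other strand, motifs that 8.3% and 23.4% of all windows hold. The Flicr window holds none of the 7 motifs and is 67.3% G and C. A match describes the letters of a window and is not evidence that a factor binds there.

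Flicr, which in mice has been described as a regulator of Foxp3 transcription in cis, did not follow its neighbour. It had 27.0, 43.5, 31.5 and 28.4 normalised reads in KO libraries, against 37.5, 20.7, 39.8 and 30.5 in WT libraries. The groups overlapped across nearly their whole ranges. The means were 32.6 ± 7.5 in KO and 32.1 ± 8.58 in WT (SD, n = 4 each), with a log2 fold change of -0.01 (SE 0.267). Pooled over each group Flicr had 127 reads in KO and 176 in WT, a ratio of levels of 0.948 with a 95% interval of 0.748 to 1.20 that covers counting error only. Foxp3 and Flicr share 853 bases of annotated exons on the same strand, which is 18.6% of the exon bases of Foxp3, so reads from those bases may have been left out or given to either gene. The annotation used here is one version later than the gene IDs in the table for both genes, so the shared stretch may differ from the one that was counted.

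Within each library, the ratio of Foxp3 reads to the reads of another gene is independent of depth and of the normalisation. The ratio to Flicr was 18.0 to 35.0 in KO libraries and 1.91 to 3.77 in WT libraries. The ratio to Il2ra was 11.9 to 21.3 in KO and 1.40 to 2.96 in WT, and the ratio to Ctla4 was 7.91 to 11.7 in KO and 0.833 to 2.63 in WT. Against Ikzf2, Ikzf4 and Gpr83, Foxp3 had more reads in every KO library and fewer in every WT library. Against Izumo1r, the most abundant gene of the set, Foxp3 stood at 0.485 to 0.947 reads per read in KO libraries, with the lowest value in Sample_2907_KO, and at 0.0774 to 0.103 in WT libraries. For all 8 genes with reads in every library, the ratios of the groups did not overlap. Foxp3 is part of every ratio, so this repeats the difference in Foxp3 and is not a separate finding for each gene.

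**Figure D2:**
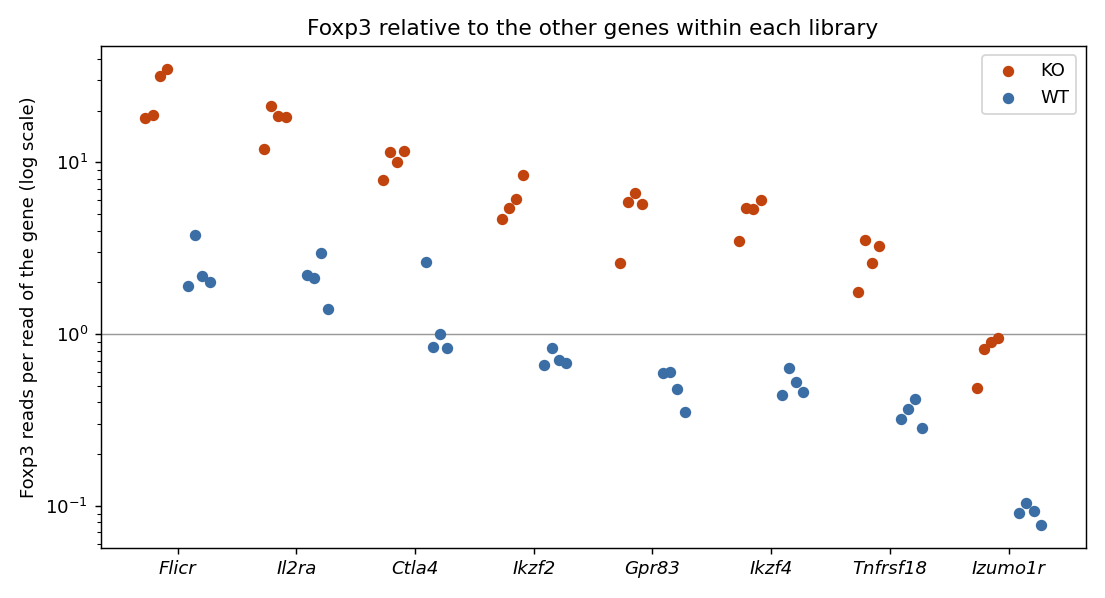
Foxp3 reads per read of each other gene (y axis, log scale) in each library, with KO libraries left and WT libraries right of each gene name on the x axis and a line at 1, where both genes have equal reads. Ratios to Ikzf2, Gpr83, Ikzf4 and Tnfrsf18 lie above 1 in all 4 KO libraries and below 1 in all 4 WT libraries.

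Of the 9 tested genes 3 were called, all higher in KO, where 3.98% of all tested genes were called higher: Foxp3, Tnfrsf18 and Izumo1r. These calls come from the comparison by which the set was chosen, so nothing is read from the share. In those 3 genes every KO library lay above every WT library, as in 6.24% of all tested genes. In Lrrc32, which was not tested, every KO library lay below every WT library, as in 4.79% of all tested genes. Among the 4646 genes with at least 10 reads that were not tested, the share was 2.02%. For Lrrc32 the gap rests on 0 reads in KO libraries against 1 read each in Sample_2911_WT and Sample_2913_WT. The other 6 genes overlapped, where 11.0% of all tested genes did not. The median log2 fold change of the 8 tested genes other than Foxp3 was 0.24, with 7 of 8 above 0. Over all 11772 genes it was -0.00, with 49.9% above 0. Foxp3 was therefore far above the rest of the set, whose next largest log2 fold change was 0.50.

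**Figure D3:**
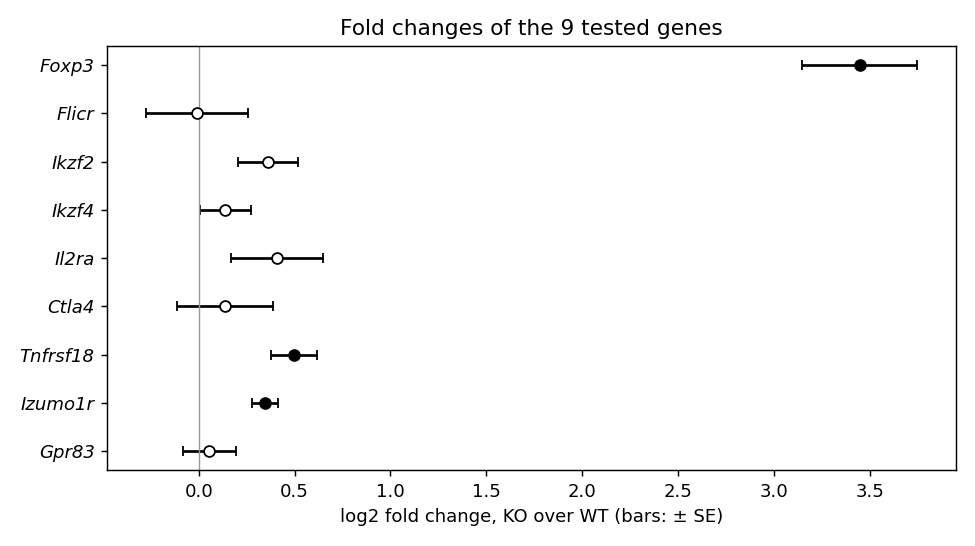
Log2 fold change of KO over WT (x axis; points are the fitted values and bars ± SE, n = 4 each) for the 9 tested genes. Filled points were called at an adjusted p under 0.05; Foxp3 lies at 3.45, Tnfrsf18 at 0.50 and Izumo1r at 0.35, and the open points of the other 6 genes lie between -0.01 and 0.41.

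Among the transcription factors of the set, Ikzf2 (ENSMUSG00000025997.13, chr1:69531214-69687245, minus strand) encodes Helios, an Ikaros family factor found in most thymus-derived regulatory T cells. It had 105, 151, 163 and 118 normalised reads in KO libraries, against 109, 93.9, 122 and 90.0 in WT libraries. Sample_2908_KO and Sample_2909_KO lay above every WT library, while Sample_2907_KO and Sample_2910_KO fell within the WT range. The means were 134 ± 27.2 in KO and 104 ± 14.6 in WT, with a log2 fold change of 0.36 (SE 0.156) that was not called. Ikzf4 (ENSMUSG00000002578.17, chr10:128630843-128645991, minus strand) encodes Eos, an Ikaros family factor that takes part in gene silencing by Foxp3. It had 139, 152, 187 and 166 normalised reads in KO libraries, against 162, 123, 164 and 132 in WT libraries, and the groups overlapped. Its log2 fold change was 0.14 (SE 0.133) and was not called.

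Among the surface receptors, Tnfrsf18 and Izumo1r were higher in KO. Tnfrsf18 (ENSMUSG00000041954.18, chr4:156026164-156028895, plus strand) encodes GITR, a costimulatory receptor abundant on regulatory T cells. It had 277, 234, 386 and 305 normalised reads in KO libraries, against 223, 213, 206 and 214 in WT libraries. The KO libraries were all above the WT libraries, though Sample_2908_KO was close to Sample_2911_WT. The means were 301 ± 64.2 in KO and 214 ± 7.06 in WT (SD, n = 4 each), with a log2 fold change of 0.50 (SE 0.120). As for Foxp3, the spread was on the KO side, where the coefficient of variation of 21.4% exceeded that of 98.1% of genes of like level, while the WT value of 3.30% exceeded that of 3.67%. Without Sample_2909_KO the log2 fold change was 0.34 and Tnfrsf18 was no longer called, and without Sample_2911_WT and Sample_2914_WT together it was 0.49 and not called either. An antisense gene, Gm16008, shares 414 exon bases with Tnfrsf18 and had 31 reads in KO and 23 in WT, where Tnfrsf18 had 1162 in KO and 1069 in WT, and the kit did not mark the strand of a read.

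Izumo1r (ENSMUSG00000031933.17, chr9:14885814-14903949, minus strand) encodes folate receptor 4, which mouse regulatory T cells carry at high levels and naive CD4 T cells at lower ones. It had 1003, 1004, 1110 and 1051 normalised reads in KO libraries, against 784, 756, 927 and 788 in WT libraries. The groups did not overlap and the KO libraries lay close together. The means were 1042 ± 50.4 in KO and 814 ± 77.1 in WT (SD, n = 4 each), with a log2 fold change of 0.35 (SE 0.069). The call held in all 19 alternatives, between 0.31 and 0.43. The RefSeq windows of these receptors, the called members besides Foxp3, are printed with the same marking.
Tnfrsf18, chr4:156026072-156026371, plus strand: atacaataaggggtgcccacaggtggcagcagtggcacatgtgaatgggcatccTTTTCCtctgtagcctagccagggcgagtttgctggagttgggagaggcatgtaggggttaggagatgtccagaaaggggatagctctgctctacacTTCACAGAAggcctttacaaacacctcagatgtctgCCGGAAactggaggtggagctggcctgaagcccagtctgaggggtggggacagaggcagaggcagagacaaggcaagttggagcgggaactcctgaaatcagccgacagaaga
Izumo1r, chr9:14903718-14904017, minus strand, printed as transcribed: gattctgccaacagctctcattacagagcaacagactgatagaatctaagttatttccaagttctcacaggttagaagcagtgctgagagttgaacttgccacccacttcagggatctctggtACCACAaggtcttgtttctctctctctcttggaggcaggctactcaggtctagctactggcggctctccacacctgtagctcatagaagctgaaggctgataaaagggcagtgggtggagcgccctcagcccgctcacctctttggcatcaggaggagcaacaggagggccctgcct
The Tnfrsf18 window holds an NFAT core at -196 to -191, a STAT motif at -99 to -91 and an ETS motif at -63 to -58. The STAT motif is the one kind it shares with the second Foxp3 window apart from the NFAT core. The Izumo1r window holds a RUNX motif at -127 to -122, a motif found in 16.8% of all windows.

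Gpr83 (ENSMUSG00000031932.14, chr9:14860210-14870789, plus strand), a G protein-coupled receptor enriched in regulatory T cells, is the neighbour of Izumo1r on chromosome 9, with 15024 bases between the genes. It had 187, 140, 150 and 175 normalised reads in KO libraries, against 121, 130, 180 and 174 in WT libraries. The groups overlapped, and the log2 fold change of 0.06 (SE 0.138) was not called. Ctla4 (ENSMUSG00000026011.13, chr1:60887000-60915832, plus strand) encodes the inhibitory receptor through which regulatory T cells remove costimulatory ligands from antigen-presenting cells. It had 61.5, 71.5, 99.1 and 85.2 normalised reads in KO libraries, against 27.3, 92.3, 86.3 and 73.2 in WT libraries. Sample_2911_WT stood below the other WT libraries, and the log2 fold change was 0.14 (SE 0.252) with it and -0.07 without it, not called in either case.

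Il2ra (ENSMUSG00000026770.5, chr2:11642807-11693193, plus strand) encodes CD25, the high-affinity chain of the IL-2 receptor, and its protein was used to exclude cells in the sort of both groups. It had 41.0, 38.6, 53.4 and 54.5 normalised reads in KO libraries, against 32.4, 36.6, 29.2 and 43.5 in WT libraries. The KO libraries leaned higher but overlapped Sample_2915_WT, and the log2 fold change of 0.41 (SE 0.239) was not called. The partner chain of that receptor differed from it. Il2rb, which encodes the beta chain, had 485, 440, 532 and 416 normalised reads in KO libraries, against 233, 189, 209 and 159 in WT libraries. Il2rb was called higher with no overlap between the groups (log2 fold change 1.26, SE 0.107, edgeR adjusted p = 8.38e-10), and was named here after its values were seen. Il2rg, the common gamma chain, stood at 2933 ± 62.7 in KO and 2847 ± 263 in WT and was not called (log2 fold change 0.04, edgeR adjusted p = 0.788).

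Lrrc32 (ENSMUSG00000090958.2, chr7:98489283-98502181, plus strand) encodes GARP, which holds latent TGF-beta on the surface of activated regulatory T cells, and it was the member that pointed the other way. No Lrrc32 read was counted in any of the 4 KO libraries, while WT libraries had 1, 1, 25 and 14 reads, or 1.70, 1.59, 9.85 and 10.7 normalised reads. Most WT reads came from Sample_2914_WT and Sample_2915_WT, the most deeply sequenced of the group. Pooled over the group, the WT level of 8.09 normalised reads was 10.4-fold the KO floor of 0.778. That floor is the level that 3 reads over the pooled KO libraries would give. The exact interval of the pooled ratio of KO to WT ran from 0 to 0.124 and covers counting error only. The levels of 1.70 in Sample_2911_WT and 1.59 in Sample_2913_WT were nearer to the floor than the pooled level. The filter on low counts removed the gene from the fit across all genes. With no count filter edgeR called it lower in KO (adjusted p = 0.000409), and DESeq2 set no adjusted p for it.

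On a scale per length (RPKM, reads per kilobase of annotated exons at a common library size), the levels of different genes can be compared. In KO libraries Izumo1r came first at 50.9 ± 2.45 RPKM, followed by Tnfrsf18 at 22.3 ± 4.77 and Foxp3 at 20.4 ± 5.93, whose ranges over libraries overlapped. In WT libraries Izumo1r came first at 39.7 ± 3.73 RPKM and Tnfrsf18 followed at 15.9 ± 0.531. Foxp3 ranked 3 of the 10 genes in KO and 6 in WT, at 1.84 ± 0.262 RPKM, below Ctla4, Gpr83 and Ikzf4. Its WT range of 1.51 to 2.13 RPKM lay below that of Ikzf4, at 2.31 to 3.09, and above that of Flicr, at 0.654 to 1.26. In KO libraries Ctla4, Gpr83 and Ikzf4 stood at 3.86, 3.62 and 3.04 RPKM and their ranges overlapped. Ikzf2, Flicr and Il2ra stood at 1.31, 1.03 and 0.930 RPKM in KO, and at 1.01, 1.02 and 0.702 in WT. By the length of all annotated exons Flicr and Ikzf2 changed places between the groups, and their ranges overlapped in each. The order of the low genes depends on the length used: by the longest transcript, Flicr and Il2ra changed places instead and Ikzf2 ranked 7 in both groups. Izumo1r moved most with the length, to 91.5 RPKM in KO and 71.4 in WT by the longest transcript, where Tnfrsf18 stood at 28.6 in KO and 20.4 in WT and Foxp3 at 24.4 in KO and 2.19 in WT. The ranks of these 3 genes were the same by either length.

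The genes around Foxp3 on the X chromosome showed no comparable difference. Of 29 annotated genes within 250 kb, 16 had at least 10 reads and 13 were tested. Plp2, a small membrane protein gene 72696 bases away, was the 1 gene called higher in KO by edgeR, and 0 were called lower. Over all tested genes 3.98% were called higher and 2.41% lower. No further neighbour had an unadjusted p under 0.05 by edgeR. Plp2 stood at 207 ± 16.2 normalised reads in KO and 133 ± 9.79 in WT (SD, n = 4 each), with groups that did not overlap (log2 fold change 0.65, SE 0.120, edgeR adjusted p = 0.00044). Gripap1, which was not called, was the other tested neighbour without overlap, at 1292 to 1428 in KO and 1236 to 1258 in WT. Every KO library lay above every WT library in 6.24% of all tested genes. The median log2 fold change over the 13 genes was 0.07, and their range was -0.58 for 2010204K13Rik to 0.65 for Plp2. Between these lay Usp27x (0.58), Praf2 (0.22), Kcnd1 (0.21), Gripap1 (0.11), Ppp1r3f (0.09), Otud5 (0.07), Tfe3 (0.05), Prickle3 (0.02), Gpkow (0.01), Flicr (-0.01) and Wdr45 (-0.11). Syp, Gm14379 and Gm36995 had too few reads to be tested.

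**Figure D4:**
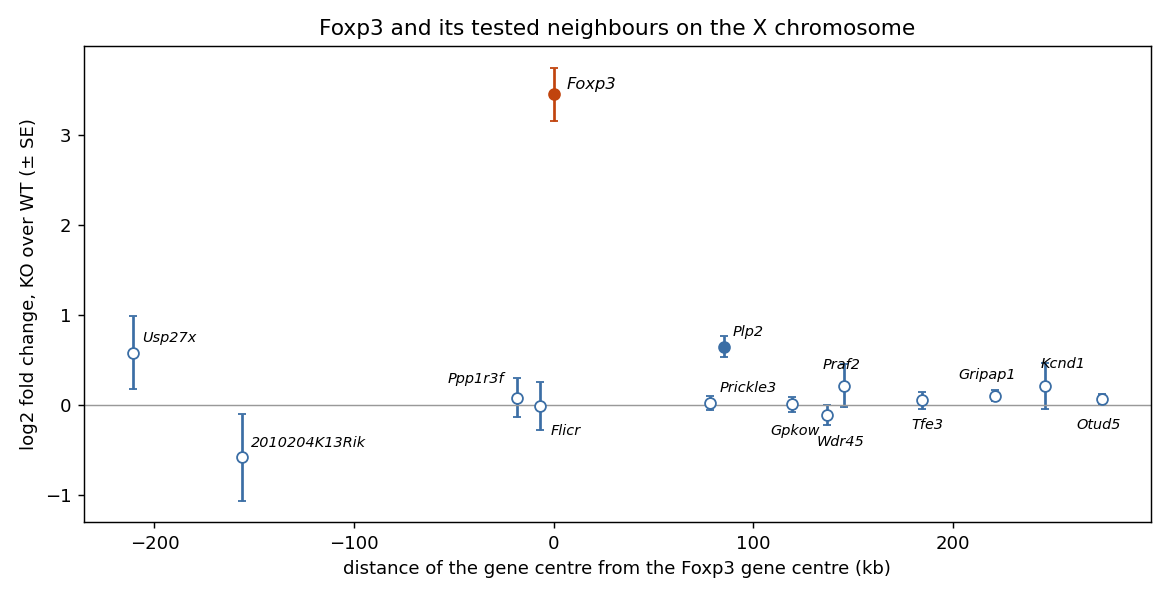
Log2 fold change of KO over WT (y axis; points are fitted values and bars ± SE, n = 4 each) against the distance of each gene's centre from that of Foxp3 in kilobases (x axis), for Foxp3 and the 13 tested genes within 250 kb; filled points were called at an adjusted p under 0.05. Foxp3 lies at 3.45 and Plp2 at 0.65, and the other 12 genes lie between -0.58 and 0.58 and were not called.

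Genes on the opposite strand also overlap Foxp3. Ppp1r3f and Gm36995 share 266 and 373 exon bases with Foxp3 and had 204 and 39 reads in KO and 245 and 57 in WT, pooled over libraries. Ccdc22 shares 590 bases and had 1 read in KO and 2 in WT. Foxp3 had 3185 reads in KO and 390 in WT. How the authors treated reads in shared bases is not stated in the labels.

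A wider list of 40 regulatory T cell genes showed little of the Foxp3 difference. Of 18 tested genes, 1 was called higher (Gbp4) and 0 were called lower by edgeR, and the median log2 fold change was 0.03. By edgeR 6 of the 18 had an unadjusted p under 0.05. These were Gbp4, Nt5e, Batf and Maf, higher in KO, and Nrp1 and Icos, lower. Batf and Maf were picked out with their values already known. The share of all tested genes under that value is not given here, so nothing is read from the count. The edgeR calls stood against 3.98% higher and 2.41% lower over all tested genes. With all 40 genes of the list fitted, DESeq2 called 2 higher and a fit with no count filter 3. Those fits called 463 and 559 of 23678 genes higher. Gbp4, an interferon-inducible GTPase, stood at 4268 ± 478 normalised reads in KO and 3529 ± 243 in WT (log2 fold change 0.28, SE 0.068, edgeR adjusted p = 0.0124), and missed the threshold without Sample_2915_WT (adjusted p = 0.0553). The most abundant genes that were not called were Tnfrsf1b, which encodes TNF receptor 2 (log2 fold change 0.02), Icos, a costimulatory receptor (-0.22), and Ptger4, a prostaglandin receptor (-0.12).

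Nt5e, which encodes CD73, an enzyme that makes adenosine, was named after its values were seen. It stood at 419 ± 116 normalised reads in KO and 247 ± 43.8 in WT, without overlap (log2 fold change 0.79, SE 0.220, edgeR adjusted p = 0.0944), and was called with DESeq2 (adjusted p = 0.000142) and with no count filter (adjusted p = 1.66e-08). Nrp1, a surface marker of thymus-derived regulatory T cells, stood at 18.9 ± 5.35 in KO and 35.6 ± 11.4 in WT and was not called (log2 fold change -0.87, SE 0.310, edgeR adjusted p = 0.0952). It was likewise named after its values were seen.

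The 22 genes of that list with too few reads to be tested were, summed, lower in KO. Their summed level was 35.6, 19.3, 38.1 and 37.9 normalised reads in KO libraries, against 47.7, 71.6, 62.2 and 56.4 in WT libraries, and every KO sum lay below every WT sum. In reads this was 125 in KO and 305 in WT, of which Sample_2914_WT gave 51.8%, close to its share of 50.1% of the WT size factors. Of the 13 genes with at least 10 reads, the 95% interval of the pooled ratio lay below 1 for 7, above 1 for 1 and across 1 for 5. Over all 4646 genes with at least 10 reads that were not tested, it lay below 1 in 9.97% and above 1 in 9.97%, and every KO library lay below every WT library in 2.02%. Those below 1 included Ccr8, a chemokine receptor, with 6 reads in KO and 40 in WT, Tigit, an inhibitory receptor, with 2 in KO and 15 in WT, and Plagl1, a zinc finger factor, with 2 in KO and 17 in WT. Socs2, a STAT5 target that dampens cytokine signalling, was the gene above 1, with 20 reads in KO and 2 in WT (ratio 13.1, 95% interval 3.19 to 116). Of the WT reads, Sample_2914_WT gave 26 of the 40 of Ccr8 and 13 of the 17 of Plagl1, and Sample_2913_WT gave 8 of the 15 of Tigit. These genes were named after their values were seen, and the intervals cover counting error and not the spread between libraries. In the fit with no count filter, which takes that spread in, edgeR called none of the 4: the adjusted p was 0.141 for Ccr8, 0.347 for Tigit, 0.495 for Plagl1 and 0.102 for Socs2.

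Genes known to control Foxp3 transcription were followed next, as a list of 42, of which 41 were tested. By edgeR 5 were called higher and 3 lower, where 3.98% of all tested genes were called higher and 2.41% lower, and the median log2 fold change was 0.03. Id2, an inhibitor of E proteins, was the largest of them, at 615 ± 27.1 normalised reads in KO and 355 ± 20.3 in WT (SD, n = 4 each; log2 fold change 0.80, SE 0.078, edgeR adjusted p = 1.4e-08). Runx3, which with its partner Cbfb acts at the Foxp3 gene, was higher (log2 fold change 0.41, edgeR adjusted p = 0.00231), as was Nfkb1, an NF-kappaB subunit (0.26, adjusted p = 0.0024). Gata3, a T cell transcription factor (0.35, adjusted p = 0.00268), and Nfatc3, an effector of T cell receptor signalling (0.19, adjusted p = 0.0306), were also called higher. Tet1, which oxidises methylated cytosine, fell by 0.32 (edgeR adjusted p = 0.00775), and Bach2, a repressor of effector programmes, by 0.23 (0.0107). Smad3, which carries TGF-beta signals, fell by 0.25 (edgeR adjusted p = 0.0349). Nfatc3 missed the threshold without Sample_2907_KO, Sample_2910_KO, Sample_2911_WT, Sample_2913_WT or Sample_2915_WT (adjusted p up to 0.156), Smad3 without any library but Sample_2907_KO and Sample_2915_WT (up to 0.134), and Bach2 without Sample_2915_WT (0.0659). Smad3 also missed it after thinning to the smallest library (adjusted p = 0.0998), without robust estimation in edgeR (0.0515), and in limma-voom (0.0630) and DESeq2 (0.0560), 11 of 19 alternatives in all. Nfatc3 missed it in 8 of 19, among them scaling by library size alone (adjusted p = 0.0502) and a non-robust edgeR fit (0.0577). Abundant genes that were not called included Ets1 (log2 fold change -0.10), Kmt2d (0.07) and Tgfbr2 (0.17).

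A list of 30 genes encoding proteins that bind Foxp3 or act with it had 29 tested genes, with 4 called higher and 2 lower, beside 3.98% and 2.41% of all tested genes, and a median log2 fold change of -0.00. Irf4, a factor of activated and effector regulatory T cells, was the largest, at 107 ± 11.8 normalised reads in KO and 57.5 ± 7.42 in WT (SD, n = 4 each; log2 fold change 0.91, SE 0.171, edgeR adjusted p = 0.000647). Gata3, shared with the list of controllers, Ikzf3, which encodes Aiolos (log2 fold change 0.25, edgeR adjusted p = 0.00789), and Stat3 (0.19, adjusted p = 0.038) were the others called higher. Tcf7, which encodes TCF-1, fell by 0.29 (edgeR adjusted p = 0.000291) and Ikzf1, which encodes Ikaros, by 0.21 (0.00892). Stat3 missed the threshold without Sample_2907_KO, Sample_2910_KO, Sample_2911_WT, Sample_2913_WT or Sample_2914_WT (adjusted p up to 0.195), and Ikzf3 without Sample_2910_KO or Sample_2915_WT (up to 0.0518). Stat3 also missed it with scaling by library size alone (adjusted p = 0.0508), a non-robust edgeR fit (0.0745) and thinning (0.0664), 9 of 19 alternatives in all. Bcl11b (log2 fold change -0.10), Lef1 (-0.06) and Usp7 (-0.08) were the most abundant of those not called.

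Genes that Foxp3 is known to repress in regulatory T cells did not move one way. Of 18 listed genes 14 were tested, with 2 called higher and 4 lower, beside 3.98% and 2.41% of all tested genes, and a median log2 fold change of -0.07. Il7r, which encodes the IL-7 receptor alpha chain, was at 11816 ± 1712 normalised reads in KO and 7091 ± 977 in WT (SD, n = 4 each; log2 fold change 0.74, SE 0.138, edgeR adjusted p = 0.0245). Ptpn22, a phosphatase of T cell receptor signalling, rose too (log2 fold change 0.29, edgeR adjusted p = 0.00109). Besides Tcf7, the genes that fell were Dusp6, a phosphatase of ERK, by 0.54 (edgeR adjusted p = 0.0306), Actn1, an actin crosslinker, by 0.19 (0.0196), and Ccr7, a chemokine receptor of naive T cells, by 0.19 (0.0221). Il7r missed the threshold without Sample_2907_KO, Sample_2908_KO, Sample_2911_WT or Sample_2914_WT (adjusted p up to 0.0837) and Dusp6 without any library but Sample_2907_KO and Sample_2915_WT (up to 0.113), and with limma-voom (0.0521). Actn1 missed it without Sample_2907_KO, Sample_2911_WT or Sample_2913_WT (up to 0.105), and Ccr7 without Sample_2907_KO, Sample_2913_WT or Sample_2915_WT (up to 0.104). Il2, the cytokine that Foxp3 silences, had 10 reads in KO and 2 in WT, a ratio of 6.57 with a 95% interval of 1.40 to 61.6 for counting error. Il2 was picked out with its values already known. Such an interval lay above 1 in 9.97% of the 4646 untested genes holding 10 or more reads. Among the other untested cytokines listed, the ratio for Il4 was 0.985 (95% interval 0.282 to 3.24). Ifng and Il17a had 0 reads throughout. Satb1 itself, on this list, was given above, and Igfbp4 (log2 fold change -0.08) was not called.

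**Figure D5:**
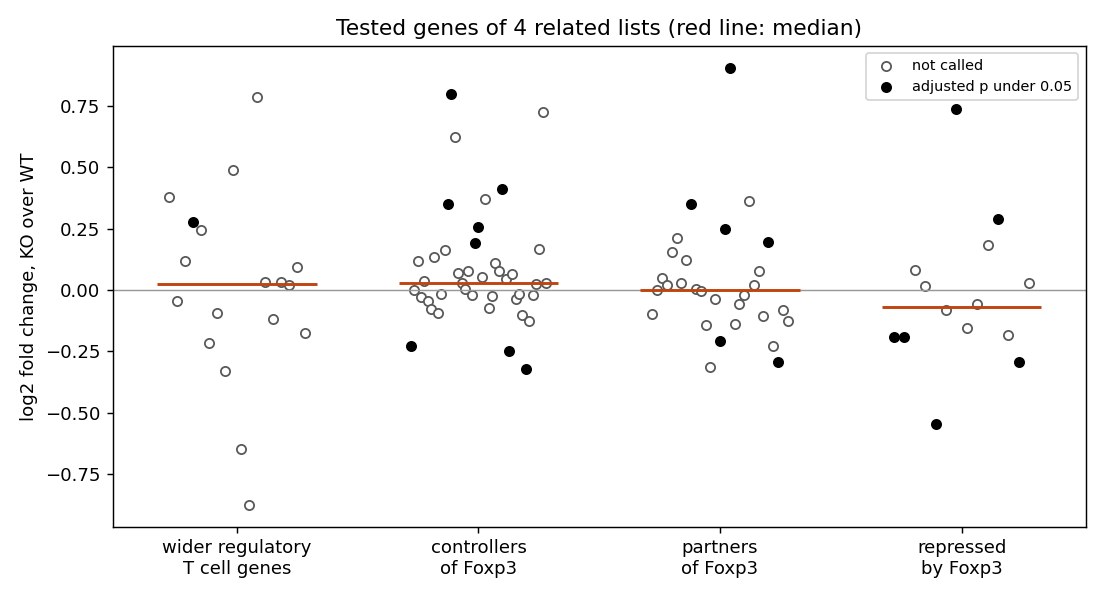
Log2 fold change of KO over WT (y axis) of each tested gene in 4 related lists (x axis); filled points were called at an adjusted p under 0.05, open points were not, and the line in each list is its median. Medians lie between -0.07 and 0.03, and the called genes reach from -0.54 for Dusp6 to 0.91 for Irf4.

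In the profile over the 8 libraries, the genes most like Foxp3 were Il10ra, Gm30948, Gm4070, Coro2a and Rsad2. Gm30948 and Gm4070 are predicted genes. Likeness was the root mean square difference of centred log2 CPM, and it was 0.716 for Il10ra, 0.741 for Gm30948, 0.751 for Gm4070, 0.846 for Coro2a and 0.920 for Rsad2, against a median of 1.73 over 9542 genes. All 5 are called higher in KO, as a gene like Foxp3 must be, so the order describes the profiles alone. Il10ra, the IL-10 receptor alpha chain, was at 1071 ± 44.1 normalised reads in KO and 244 ± 17.8 in WT, and Coro2a, a coronin family protein, at 724 ± 85.5 in KO and 180 ± 52.4 in WT. Rsad2 missed the threshold without Sample_2911_WT, Sample_2914_WT or Sample_2915_WT (edgeR adjusted p up to 0.0609). Unlike Foxp3, Il10ra did not have a low value in Sample_2907_KO, since its KO libraries all lay between 1023 and 1111.

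Marker genes of other cells were measured beside these results. Over the whole list, summed B cell markers (6 genes) were at 29.6 to 49.7 normalised reads in KO and 23.2 to 38.2 in WT libraries, NK cell markers (5 genes) at 44.8 to 64.7 in KO and 37.4 to 60.5 in WT, and CD8 T cell markers (2 genes) at 85.2 to 129 in KO and 117 to 161 in WT. Myeloid and dendritic markers (8 genes) were at 126 to 202 in KO and 80.4 to 339 in WT, and erythroid markers (4 genes) at 0 to 2.37 in KO and 0 in WT, with 2 of the 4 at 0 in all libraries. The ranges of the groups overlapped for each of these lists, and none of their tested genes was called. Few were tested, however: 2 of 6 B cell, 1 of 5 NK cell, 1 of 2 CD8 T cell, 3 of 8 myeloid and dendritic and 0 of 4 erythroid markers. Equal levels of the untested markers were therefore not shown. The wide myeloid range in WT came largely from Lyz2, at 223, 0, 1.18 and 94.5 normalised reads. Markers of effector or memory CD4 T cells (7 genes) summed to 761 to 901 in KO and 836 to 956 in WT, with Cd44 called lower in KO (log2 fold change -0.34, edgeR adjusted p = 0.0262). Among the naive CD4 T cell markers reported here, Il7r was called higher and Tcf7, Ccr7 and Cd4 (log2 fold change -0.19, edgeR adjusted p = 0.0242) lower. Cd44 missed the threshold without Sample_2909_KO, Sample_2910_KO, Sample_2914_WT or Sample_2915_WT (adjusted p up to 0.122), and Cd4 without Sample_2907_KO, Sample_2911_WT or Sample_2913_WT (up to 0.115). Cd44 encodes a protein used in the sort. The part of any of these cells in the Foxp3 level was not tested.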

How the data were processed

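Poly(A) RNA of 8 sorted samples was sequenced as single reads of 75 bases from an unstranded TruSeq kit, per the labels' protocols. The submitters' processing notes name CASAVA 1.8.2, FastQC, R 3.5.3, DESeq2 1.22.2 and the genome build mm10. No label or header names the software that aligned and counted the reads, or the gene models it used.

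The authors deposited raw counts, with 53465 gene IDs and reads for 23678 of them. They also deposited a normalized signal for 16418 genes, in which each value is a count divided by 1 size factor per library: 100% of its values came out whole to within 1e-06, and edgeR on those recovered reads called 468 genes higher and 284 lower. Levels are counts divided by that factor. Symbols came from the deposited tables, and positions, exon lengths and overlaps from GENCODE M21, which held 99.8% of the IDs.

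The fit of KO against WT used edgeR 4.0.16 on the counts (R 4.3.3; TMM, filterByExpr, robust quasi-likelihood F test, all 8 libraries, no covariate), with Benjamini-Hochberg adjustment over 11772 genes and a threshold of 0.05. SE is the size of the log2 fold change divided by the root of its F value. Alternatives were DESeq2 1.42.0, limma 3.58.1 (voom with sample weights, and trend on log2 of the normalized values plus 1), other size factors and filters, a non-robust fit, thinning, and leaving libraries out. The fit on the recovered reads was counted among the 19 alternatives. The steps were checked on simulated counts. Pooled ratios have exact conditional 95% intervals, and floors are 3 reads; both cover counting error only. RPKM used the union of annotated exons.

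The members and the gene lists were chosen with earlier results of these data known. Genes named were the 10 members, genes within 250 kb of Foxp3 with at least 10 reads, up to 5 called genes per direction and 3 abundant uncalled genes of each list, and the 5 genes most like Foxp3 in profile (mean of at least 5 CPM); others are said to be named after their values were seen. Of the 10 members, 7 had a RefSeq promoter window (8 windows), not Ikzf2, Ikzf4 or Lrrc32. Some genes of the lists are not reported here.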

Additional observations from a re-analysis of the deposited data

Results flagged for a closer look

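Over the genes named above, 151 groups of 4 libraries were examined for a library whose distance to the nearest other library, as a share of the range of its group, exceeds Dixon's 95% critical value, and 3 were found, where chance gives about 1 in 20. None of them was one of the 10 regulatory T cell genes. Ppp1r3f, which overlaps Foxp3 on the opposite strand, had 71.5 normalised reads in Sample_2909_KO, against 44.4 to 47.4 in the other KO libraries. Eomes, a factor of NK and memory T cells, had 42.9 normalised reads in Sample_2909_KO, against 60.4 to 61.8 in the other KO libraries. Gm4070, among the genes most like Foxp3 in profile, had 40.9 normalised reads in Sample_2911_WT, against 12.2 to 13.0 in the other WT libraries.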

How the results depend on the processing

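Foxp3 was called higher in all 19 alternatives, with a log2 fold change of 3.34 to 3.63 and an adjusted p of at most 0.0371, reached without Sample_2911_WT and Sample_2914_WT together, the smallest and the largest library. The 19 include the fit on the recovered reads, which equal the counts, so that fit could hardly differ from the main one. Leaving out 1 library at a time gave 368 to 500 genes called higher and 191 to 336 called lower. Without Sample_2911_WT and Sample_2914_WT together, 158 genes were called lower and the calls fell to 0 higher in the wider regulatory T cell list, 2 higher and 1 lower among controllers of Foxp3, 1 higher and 1 lower among its partners, and 1 higher and 2 lower among genes it represses; fewer samples were fitted there. Genes called higher in the wider list numbered 3 with no count filter, 2 with DESeq2, 2 with a non-robust fit and 0 to 2 when 1 library was left out. Controllers called higher numbered 8 with limma-voom. With 1 library left out, partners called higher numbered 2 to 4, and repressed genes 1 to 2 higher and 1 to 5 lower. Uncalled members near 0 changed sign: Flicr had a log2 fold change of 0.0365 with limma-trend, 0.050 after thinning, 0.31 without the WT pair and -0.18 to 0.14 with 1 library left out; Ctla4 had -0.037 without the WT pair and -0.071 to 0.27 with 1 library left out; and Gpr83 had -0.026 to 0.16 with 1 library left out. The cause was not tested. Of 28 other named genes that were called, 11 kept their call in all 19 alternatives. No paired analysis was possible because KO and WT libraries share no sample number. Depth kept Lrrc32 and the other genes with few reads out of the fit across all genes.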
